A study of Mus musculus with 6 samples.

Results

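Apoe and 8 genes that act with it in moving cholesterol out of cells were followed in the RNA-seq data: the liver X receptor genes Nr1h3 and Nr1h2, the transporter genes Abca1 and Abcg1, the apolipoprotein gene Apoc2, the lipoprotein enzyme and transfer protein genes Lpl and Pltp, and Mylip. They were chosen by name for their place in this pathway, from the 17469 genes with deposited values and with earlier results of these data known. All 9 of them passed the filter on low counts that 12701 genes passed.

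Liver X receptors are nuclear receptors that bind oxysterols, pair with retinoid X receptors and switch on genes that export cholesterol. In macrophages these targets include Abca1 and Abcg1, which hand cholesterol to lipid-poor apolipoproteins and to high-density lipoprotein, and Apoe, the protein that carries lipid between cells and binds receptors of the LDL receptor family. In the brain, APOE is known for its tie to the risk of Alzheimer's disease.

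The sequenced cells were tdTomato+ cells sorted from bone marrow stromal cell (BMSC) cultures of 6-month-old mice. Control mice were Ocn-Cre;Ai9 and the others TgAPPswe;Ocn-Cre;Ai9 (TgAPPsweOCN), with 3 libraries per genotype and no treatment. Cre was driven by the osteocalcin promoter in both genotypes and turned on the Ai9 reporter, which marks cells with tdTomato. In TgAPPsweOCN mice it also removed a stop cassette before human APPswe, a Swedish-mutation form of amyloid precursor protein under the CAG promoter, so the genotypes shared Cre and reporter and differed in the transgene. The number of mice behind a library is not given in the sources used here, so p-values measure the spread between these libraries.

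Libraries summed to between 19340810 and 19801060 estimated counts in controls and between 21677461 and 22037840 in TgAPPsweOCN, and 3 counts, taken as the smallest detectable level, were 0.136 to 0.155 CPM (counts scaled to the library total), a limit that covers counting error only. App, the single entry to which mouse and human reads could both map, rose with a log2 fold change of 0.45 (SE 0.0509, edgeR quasi-likelihood adjusted p = 7.87e-05). The labelled cell type was checked against marker lists. Summed FPKM (fragments scaled by transcript length and library total) of 15 macrophage markers was 27092 to 29231 in controls and 21103 to 24807 in TgAPPsweOCN, and that of 15 osteoblast and stromal markers 145 to 172 and 114 to 200. Bglap, which encodes osteocalcin, was at 1.25, 0.97 and 0.35 FPKM in controls and 0.49, 0.33 and 0 in TgAPPsweOCN, and Dmp1, an osteocyte marker, did not exceed 0.05. Of 13 tested osteoblast and stromal markers 2 were called, both higher (8.90% of all genes were called higher and 9.20% lower). With the adjusted p alone 4 rose and 2 fell, against 32.5% and 31.5% of all genes. Those called were the matrix proteoglycan genes Dcn, at 0.36 to 0.61 FPKM in controls and 1.27 to 10.3 in TgAPPsweOCN, and Lum, at 0 to 0.03 and 0.63 to 0.87. Col3a1 (log2 fold change 0.74, adjusted p = 0.00269) and Alpl (0.57, adjusted p = 0.00138) rose by less than 2-fold. Sp7 (-0.78, adjusted p = 0.00707) and Pdgfrb (-0.55, adjusted p = 0.00282) fell by less than 2-fold. Of the 15 macrophage markers 4 were called higher and 3 lower (8.90% and 9.20% of all genes; adjusted p at or below 0.05 and at least 2-fold), among them Adgre1 upward (log2 fold change 1.89) and Mrc1 downward (-2.38). The part of these marker shifts in the results was not tested. In bulk RNA, fewer cells of a type and less RNA per cell cannot be told apart.

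Promoters are shown first, because known targets of one receptor pair moved in opposite directions among the 9 genes. RefSeq (GRCm38.p6) start sites were at hand for 7 of the 9 genes, and Abcg1 and Lpl had no entry. The 250 bases before each start were searched on both strands for the liver X receptor element of the DR4 type, a direct repeat of AGGTCA with 4 free bases between the copies and at most 1 mismatch in each copy. None of the windows of the 7 genes held it, against 1.48% of 32851 windows of the same length. For Apoe and Nr1h3 the most upstream start in the table lay 2122 and 7713 bases inside the RefSeq gene span, counted from its 5′ end, so the sequence before those 5′ ends was not searched. With up to 2 mismatches in a copy and 3 in all, a search added after the first gave no match, Abca1 alone held a match, 67 to 52 bases upstream on the opposite strand with the copies GGGTTA and CGGTCA, as did 15.8% of all windows. The sterol regulatory element, where the SREBP factors bind (TCACCCCAC, at most 1 mismatch), was matched in Nr1h3, Apoe and Mylip and in 8.47% of all windows. The 4 promoters below carry these matches and are printed 5′ to 3′ on the gene's own strand, with the repeat copies or the sterol element in capitals. They lie at chr4:53159896-53160145 (Abca1, minus strand), chr7:19699189-19699438 (Apoe, minus strand, most upstream of 3 starts in the table, inside the gene span), chr2:91195117-91195366 (Nr1h3, minus strand, upstream of 2 starts in the table, inside the gene span) and chr13:45389492-45389741 (Mylip, plus strand).
Abca1: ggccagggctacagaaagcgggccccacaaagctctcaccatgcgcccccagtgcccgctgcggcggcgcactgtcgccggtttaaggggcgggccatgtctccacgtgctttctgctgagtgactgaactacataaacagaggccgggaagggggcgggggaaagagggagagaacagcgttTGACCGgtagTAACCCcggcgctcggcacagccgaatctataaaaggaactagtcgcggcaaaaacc
Apoe: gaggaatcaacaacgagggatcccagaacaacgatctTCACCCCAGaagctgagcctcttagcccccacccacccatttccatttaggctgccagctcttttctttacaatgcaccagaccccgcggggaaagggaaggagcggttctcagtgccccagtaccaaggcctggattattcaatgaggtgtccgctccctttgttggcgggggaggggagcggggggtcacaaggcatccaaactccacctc
Nr1h3: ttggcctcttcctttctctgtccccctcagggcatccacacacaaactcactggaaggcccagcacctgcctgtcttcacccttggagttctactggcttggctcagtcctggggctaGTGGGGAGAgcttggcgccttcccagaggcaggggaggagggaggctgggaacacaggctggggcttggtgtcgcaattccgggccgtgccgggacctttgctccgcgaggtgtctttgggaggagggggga
Mylip: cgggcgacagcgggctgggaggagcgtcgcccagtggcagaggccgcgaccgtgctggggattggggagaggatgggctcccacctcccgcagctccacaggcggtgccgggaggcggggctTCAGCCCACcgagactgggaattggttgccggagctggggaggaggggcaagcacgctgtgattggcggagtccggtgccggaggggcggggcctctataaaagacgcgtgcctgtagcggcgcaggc

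In Apoe the element read TCACCCCAG and lay 213 to 205 bases before the start, in Mylip TCAGCCCAC at 128 to 120, and in Nr1h3 TCTCCCCAC on the opposite strand at 132 to 124. The core GAGGAA, bound by the myeloid factor PU.1, was matched in Apoe and Pltp and in 23.3% of all windows. The E-box CACGTG was found in Abca1 (6.02% of windows), the GC box GGGCGG in Abca1, Pltp and Mylip (32.7%), and TATAAA in Abca1, Apoe and Mylip (12.4%). In Apoe, TATAAA lay only before the start at chr7:19698621, not in the window printed above. Genes with several starts, such as Apoe, had a window for each, whereas the shares are per window. These are matches of letters in a short window, and liver X receptor elements further away or in introns were not searched.

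Among the 9 genes, Nr1h3 and Abcg1 were higher and Apoe and Apoc2 were lower in TgAPPsweOCN by at least 2-fold with an adjusted p at or below 0.05, the thresholds of the study's methods, by which genes are called here. All genes tested were called higher in 8.90% of cases and lower in 9.20%. With the adjusted p alone, 4 of the 9 rose (Nr1h3, Abcg1, Pltp, Abca1) and 4 fell (Apoe, Apoc2, Mylip, Nr1h2), where 32.5% and 31.5% of all genes did. The FPKM ranges of the genotypes did not overlap for 3 genes that were higher and 4 that were lower, against 24.0% and 48.3% of all genes. The median log2 fold change was -0.06 over the 9 genes and -0.02 over all genes tested. FPKM is scaled by library totals, whereas the test used TMM factors of 1.07 to 1.08 in controls and 0.910 to 0.944 in TgAPPsweOCN. With library totals alone the median over all genes was -0.23, so FPKM ratios sit lower than the fitted fold changes. That scaling called 846 genes higher and 1732 lower, against 1130 and 1169 with TMM, and 2 and 3 of the 9 genes.

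**Figure D1:**
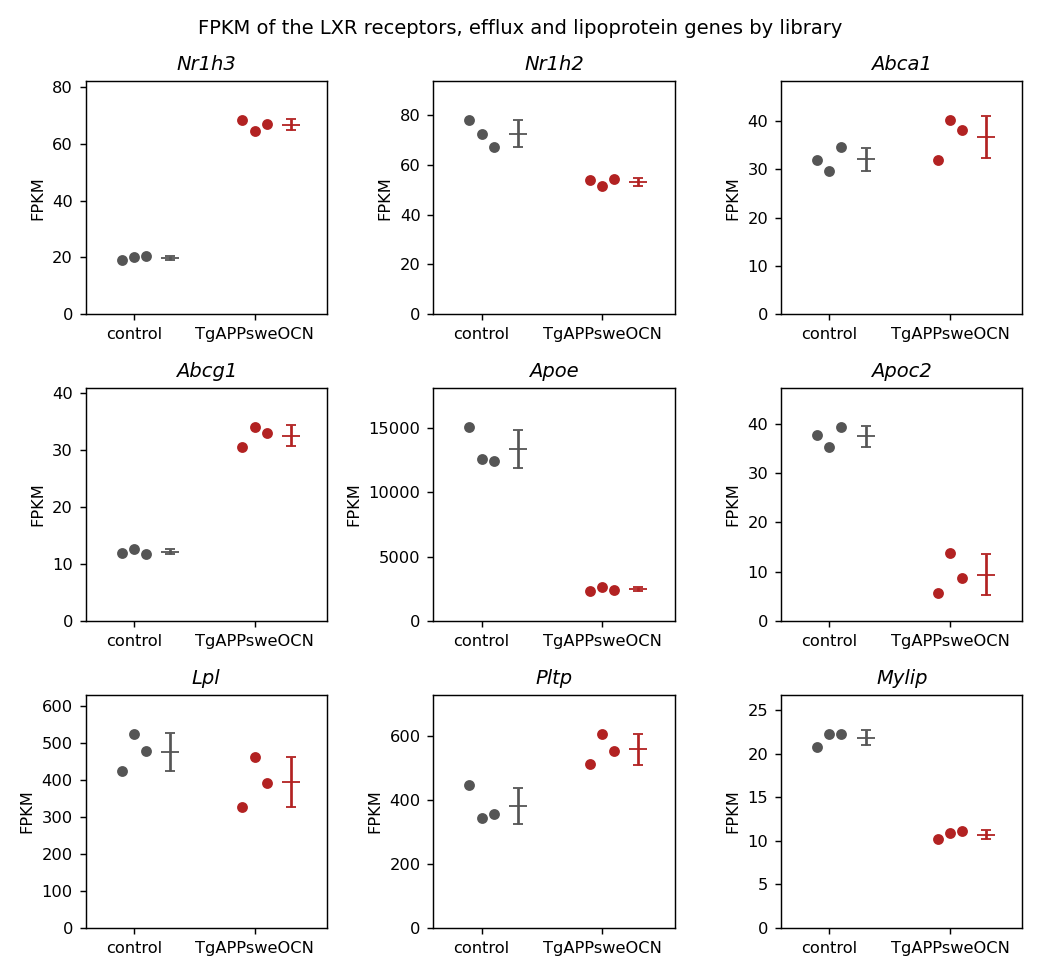
FPKM of each of the 9 genes on linear axes from 0, with 3 control and 3 TgAPPsweOCN libraries as points and the mean ± SD beside them. Nr1h3, Abcg1 and Pltp lie higher in every TgAPPsweOCN library, Apoe, Apoc2, Mylip and Nr1h2 lie lower, and Abca1 and Lpl overlap.

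Nr1h3 (Entrez 22259, chr2:91184061-91202829, minus strand) encodes LXRα, the receptor form abundant in macrophages, liver and fat. It stood at 19.1, 20.2 and 20.5 FPKM in controls and 68.4, 64.5 and 67.1 in TgAPPsweOCN. The genotypes were far apart and the libraries of each close together, with coefficients of variation of 3.70% and 2.96%. The rise was 3.91-fold (log2 fold change 1.97, SE 0.0626, adjusted p = 9.99e-08). Nr1h3 shares 18 bases with its neighbour Acp2, a lysosomal acid phosphatase gene that rose less (log2 fold change 1.10, adjusted p = 6.86e-07).

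Nr1h2 (Entrez 22260, chr7:44549616-44553968, minus strand) encodes LXRβ, the more widely expressed form. Its FPKM was 78.0, 72.2 and 67.2 in controls and 53.7, 51.3 and 54.1 in TgAPPsweOCN, with no overlap. It fell slightly (log2 fold change -0.23, SE 0.0706, adjusted p = 0.0181). This small difference missed the adjusted threshold without TgAPPsweOCN replicate 2 (adjusted p = 0.0604) or replicate 3 (0.0555).

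The balance of the receptor genes differed between the genotypes. By FPKM within a library, Nr1h3 was at 0.245, 0.279 and 0.305 of the Nr1h2 level in controls (0.276 ± 0.0302, SD, n = 3). In TgAPPsweOCN it was above Nr1h2 in all 3 libraries, at ratios of 1.27, 1.26 and 1.24 (1.26 ± 0.0163, SD, n = 3). The difference was 2.19 on the log2 scale, and the two-sided exact permutation test gave p = 0.1, the smallest that 20 splits of 3 against 3 libraries allow. A ratio within a library does not depend on how libraries are scaled.

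Abca1 (Entrez 11303, chr4:53030789-53159988, minus strand) loads cholesterol onto lipid-poor apolipoproteins, the first step of high-density lipoprotein formation. Its FPKM was 31.8, 29.7 and 34.5 in controls and 31.8, 40.2 and 38.1 in TgAPPsweOCN, and TgAPPsweOCN replicate 1 lay within the control range. The fitted rise was 1.33-fold (log2 fold change 0.41, SE 0.0872, adjusted p = 0.00316). It missed the threshold when libraries were scaled by their totals alone (0.20, adjusted p = 0.0969) and in limma on log2(FPKM + 1) (0.19, adjusted p = 0.109).

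Abcg1 (Entrez 11307, chr17:31057694-31117984) passes cholesterol on to mature high-density lipoprotein. It rose from 11.99, 12.63 and 11.81 FPKM to 30.48, 34.11 and 33.07, with no overlap. The rise was 3.11-fold (log2 fold change 1.64, SE 0.0583, adjusted p = 1.72e-07).

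Abca1 thus stood well above Abcg1 in controls and close to it in TgAPPsweOCN. The ratio of Abca1 to Abcg1 by FPKM was 2.66, 2.35 and 2.92 in controls (2.64 ± 0.285, SD, n = 3) and 1.05, 1.18 and 1.15 in TgAPPsweOCN (1.12 ± 0.0704). Their difference was -1.23 on the log2 scale (two-sided exact permutation p = 0.1, the smallest possible).

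**Figure D2:**
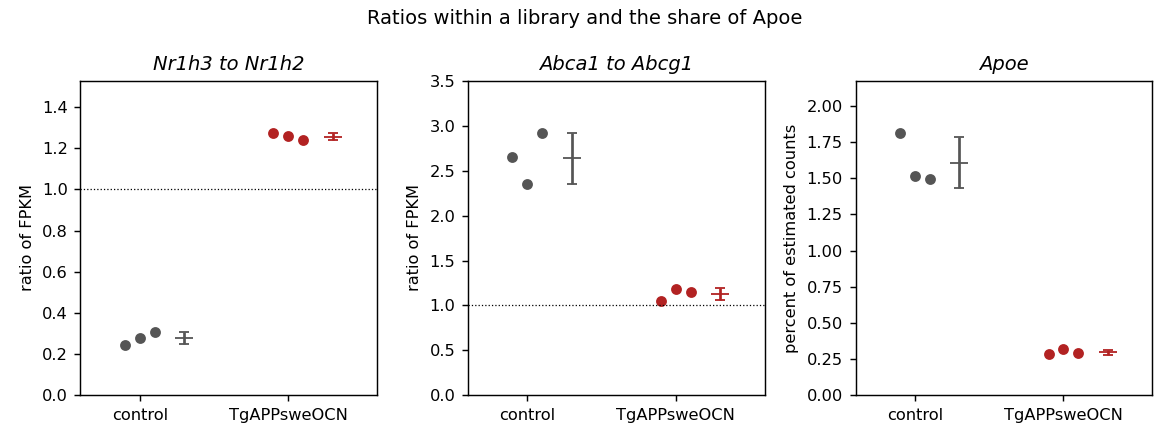
The ratio of Nr1h3 to Nr1h2 and of Abca1 to Abcg1 (both by FPKM) and the share of estimated counts held by Apoe (percent), each by genotype, with 3 libraries as points and the mean ± SD. The receptor ratio lies between 0.245 and 0.305 in controls and between 1.24 and 1.27 in TgAPPsweOCN, while the transporter ratio and the Apoe share are lower in every TgAPPsweOCN library.

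Apoe (Entrez 11816, chr7:19696244-19701310, minus strand) was among the most abundant transcripts of these cells and fell most of the 9 genes. Its FPKM was 15068, 12586 and 12437 in controls (13364 ± 1478, SD, n = 3) and 2342, 2630 and 2418 in TgAPPsweOCN (2463 ± 149). The lowest control library was thus well above the highest TgAPPsweOCN library, and the level fell 4.68-fold (log2 fold change -2.23, SE 0.0919, adjusted p = 3.12e-07). By FPKM, Apoe ranked 1, 2 and 1 among all genes of the control libraries and 14, 12 and 13 in TgAPPsweOCN. It took 1.81%, 1.52% and 1.50% of the estimated counts in controls (1.61% ± 0.176, SD, n = 3) and 0.282%, 0.317% and 0.291% in TgAPPsweOCN (0.297% ± 0.0179). That share differed by -1.31 percentage points (two-sided exact permutation p = 0.1, the smallest possible). Even so, Apoe kept the highest FPKM of the 9 genes in each of the 6 libraries.

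Apoc2 (Entrez 11813, chr7:19671579-19677941, minus strand) encodes the cofactor that lipoprotein lipase needs and lies in the same cluster as Apoe. Its FPKM was 37.6, 35.3 and 39.4 in controls (37.4 ± 2.07) and 5.65, 13.8 and 8.69 in TgAPPsweOCN (9.39 ± 4.13). The fall was 3.36-fold (log2 fold change -1.75, SE 0.237, adjusted p = 0.000241). The TgAPPsweOCN libraries scattered widely, with a coefficient of variation of 44.0%, and the fold change ranged from -2.10 to -1.50 with a library left out. Apoc2 lies wholly inside the readthrough gene Gm44805, 6363 bases being shared, and its counts were fractional in 4 libraries, so its level is uncertain to that extent. Gm44805 itself held at most 33.0 estimated counts in a library and was too low to test.

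Near Apoe, Apoc2 fell and the other 3 tested genes rose by the adjusted p, where 31.5% of all genes fell and 32.5% rose. Of the 6 other genes with values within 50 kb on either side, chosen after the values were seen, Nectin2, an adhesion protein gene, rose (9.84, 8.82 and 9.28 FPKM against 27.9, 33.7 and 28.5, log2 fold change 1.97, adjusted p = 5.26e-07). Tomm40, a mitochondrial import channel gene adjacent to Apoe, rose by less (0.52, adjusted p = 0.000102), as did Clptm1 (0.51, adjusted p = 4.29e-05). Neither Tomm40 nor Clptm1 was called. Apoc1, between Apoe and Apoc2, was too low to test, at 0.57 to 1.55 FPKM in controls and 0.13 to 0.76 in TgAPPsweOCN.

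Genes whose pattern over the 6 libraries was most like that of Apoe were P2ry12, Susd3, Zfp36l1, St6gal1 and Sema6d. Likeness was the Euclidean distance of log2 CPM, each gene centred on its own mean, over 12692 genes, and these 5 lay at 0.186 to 0.235. P2ry12, a nucleotide receptor gene known from microglia and platelets, stood at 16.9, 14.4 and 15.7 FPKM in controls and 2.65, 3.32 and 2.93 in TgAPPsweOCN. The log2 fold changes of all 5 lay between -2.30 and -2.18, close to that of Apoe, which follows from choosing them by this distance. Their absolute levels were far below that of Apoe, the highest being Zfp36l1 with a control mean of 159 FPKM.

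Lpl (Entrez 16956, chr8:68880555-68906932) encodes lipoprotein lipase, which frees fatty acids from triglyceride-rich lipoproteins. Its FPKM was 425, 527 and 479 in controls (477 ± 50.9) and 329, 464 and 392 in TgAPPsweOCN (395 ± 67.4). The ranges overlapped and no difference was detected (log2 fold change -0.06, SE 0.118, adjusted p = 0.685). This value turned its sign without control replicate 2 (0.01) or TgAPPsweOCN replicate 1 (0.05). Lpl thus remained abundant in the libraries in which Apoc2, its cofactor, was lower.

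Pltp (Entrez 18830, chr2:164839518-164857708, minus strand) encodes the phospholipid transfer protein, which remodels high-density lipoprotein. It stood at 446, 344 and 356 FPKM in controls and 513, 608 and 553 in TgAPPsweOCN, with no overlap. The rise was 1.69-fold (log2 fold change 0.76, SE 0.105, adjusted p = 0.000277), short of the 2-fold threshold. Pltp shares 1515 bases with Ctsa, a lysosomal protease gene that fell (-0.72, adjusted p = 1.12e-05), and its counts were fractional in every library, so reads may be divided between them.

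Mylip (Entrez 218203, chr13:45389742-45411940, plus strand) encodes IDOL, the ubiquitin ligase through which liver X receptors mark the LDL receptor for breakdown. It went from 20.9, 22.3 and 22.4 FPKM in controls to 10.2, 10.9 and 11.1 in TgAPPsweOCN, with coefficients of variation of 3.95% and 4.54%. It fell 1.75-fold (log2 fold change -0.81, SE 0.0586, adjusted p = 6.18e-06) and was called lower only with scaling by library totals (-1.02) and in limma on log2(FPKM + 0.1) (-1.02), of 14 alternatives. The known targets of the receptors in this group did not share a direction: Abcg1, Pltp and Abca1 rose while Apoe, Apoc2 and Mylip fell.

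**Figure D3:**
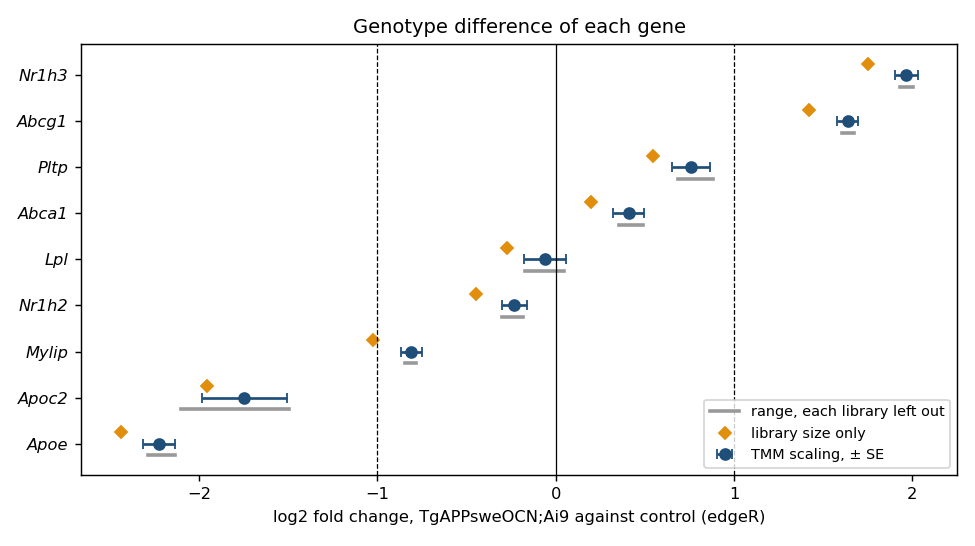
Log2 fold change of each gene in TgAPPsweOCN against control by edgeR, with points and bars for the value ± SE, grey lines for the range with each library left out and diamonds for scaling by library totals. Nr1h3 (1.97) and Abcg1 (1.64) lie at one end, Apoc2 (-1.75) and Apoe (-2.23) at the other, and the range of Lpl crosses 0.

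The order of the levels by FPKM in controls was Apoe, Lpl, Pltp, Nr1h2, Apoc2, Abca1, Mylip, Nr1h3 and Abcg1. Of neighbours in this order, Lpl and Pltp overlapped in range. In TgAPPsweOCN the order was Apoe, Pltp, Lpl, Nr1h3, Nr1h2, Abca1, Abcg1, Mylip and Apoc2. Abca1 overlapped with Abcg1 in these libraries and Mylip with Apoc2. Nr1h3 thus stood next to last in controls and above Nr1h2 in TgAPPsweOCN, where Apoc2 came last.

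The partners of the receptors, the enzymes that make or clear oxysterols and other known targets formed a list of 26 genes, of which 19 were tested. Of these 2 were called higher and 3 lower, where 8.90% and 9.20% of all genes were, so that counts this small lie near the shares over all genes. With the adjusted p alone 6 rose and 6 fell, against 32.5% and 31.5% of all genes, and 7 did not pass it. The median log2 fold change was 0.05. Cyp27a1, which makes the receptor ligand 27-hydroxycholesterol, fell from 46.7 ± 5.74 to 6.11 ± 0.719 FPKM (SD, n = 3; log2 fold change -2.72, SE 0.113, adjusted p = 3.12e-07). The targets Arl4c, a small GTPase gene, and Mertk, a receptor for the uptake of apoptotic cells, fell as well, from 120.2 ± 16.0 to 25.8 ± 0.265 FPKM (-2.01) and from 47.4 ± 1.69 to 16.3 ± 3.76 FPKM (-1.39). Scd2, a fatty acid desaturase gene, rose from 5.60 ± 0.687 to 11.5 ± 0.517 FPKM (1.26, adjusted p = 5.81e-06), and was under the 2-fold threshold in limma on log2(FPKM + 1) (0.93). Cyp7b1, which clears oxysterols, held 1, 10 and 3 estimated counts in controls and 13, 36 and 18 in TgAPPsweOCN (log2 fold change 2.28, adjusted p = 0.0138). That call was lost without control replicate 3 (adjusted p = 0.0596), and in limma on log2(FPKM + 1) (0.41), and the value was 3.44 without control replicate 2. Rxra, the main retinoid X receptor partner and named here after its values were seen, fell (log2 fold change -0.86, adjusted p = 8.27e-06) by less than 2-fold. It was called lower with library totals (-1.08) and in limma on log2(FPKM + 1) (-1.03) and log2(FPKM + 0.1) (-1.08). Srebf1, a classical target named in the same way, was at 23.4, 26.0 and 24.8 FPKM and 21.8, 21.7 and 23.7 (0.07, adjusted p = 0.354). Other targets of the list, also named after their values were seen, rose by less than 2-fold. They were Lpcat3 (0.57, adjusted p = 5.01e-05), Smpdl3a (0.45, adjusted p = 0.00319) and Acaca (0.38, adjusted p = 0.00217).

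Of 17 genes for other lipoprotein proteins and enzymes 7 were tested, with 3 called higher, 2 lower (8.90% and 9.20% of all genes) and a median of 0.42. Lipg, endothelial lipase, rose from 3 estimated counts in each control library to 129, 109 and 119, a CPM ratio of 35.5 (95% exact interval 18.5 to 78.3, for counting error only). Clu, the apolipoprotein clusterin, rose from 0.96, 0.61 and 0.83 FPKM to 1.15, 3.65 and 2.54 (1.80, adjusted p = 0.0042). Angptl4, an inhibitor of lipoprotein lipase, fell from 4.79 ± 0.342 to 1.66 ± 0.544 FPKM (-1.31, adjusted p = 0.000907). Apod and Lcat were near 1 FPKM or below, and their calls did not hold under several alternatives. The rise of Apod (1.13, adjusted p = 0.0318) was lost without control replicate 1 (0.0974), control replicate 3 (0.117) or TgAPPsweOCN replicate 3 (0.122), and with all libraries in DESeq2 (0.0593), with library totals (0.0684) and in both limma fits. The fall of Lcat (-1.24, adjusted p = 0.036) was lost without control replicate 2 (0.11) or 3 (0.0803), or TgAPPsweOCN replicate 2 (0.0944) or 3 (0.12), and with all libraries in DESeq2 (0.0837), with a replicate block (0.0651) and in limma on log2(FPKM + 1), where it was -0.49. It was larger without TgAPPsweOCN replicate 1 (-1.84, adjusted p = 0.00803). Clu too was under the 2-fold threshold in that limma fit (0.87).

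Uptake, storage and lysosomal export of cholesterol were covered by 18 genes, 17 of them tested. There 2 were called higher and 1 lower, near the 8.90% and 9.20% of all genes. With the adjusted p alone 4 rose and 8 fell, against 32.5% and 31.5% of all genes, and the median was -0.22. Gramd1a, a carrier of plasma membrane cholesterol to the endoplasmic reticulum, rose from 50.5 ± 4.05 to 202.5 ± 9.35 FPKM (2.22, adjusted p = 1.79e-07). Lipa, the lysosomal lipase that frees cholesterol from its esters, fell from 463.8 ± 54.9 to 159.5 ± 1.94 FPKM (-1.32, adjusted p = 3.4e-06). Cd36, a scavenger receptor for oxidised LDL, rose from 129.9 ± 15.3 to 230.2 ± 38.3 FPKM (1.05, adjusted p = 0.000201). It dropped under the 2-fold threshold without control replicate 1 (0.95) or TgAPPsweOCN replicate 1 (0.90), with library totals (0.83) and in limma on log2(FPKM + 1) (0.81) and log2(FPKM + 0.1) (0.82).

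In the synthesis pathway 0 of 23 tested genes were called by edgeR, DESeq2 or limma on log2(FPKM + 1), and 1, lower, by limma on log2(FPKM + 0.1). At an unadjusted p under 0.05 in edgeR 5 were higher and 5 lower, the same numbers as with the adjusted p alone, by which 32.5% and 31.5% of all genes rose and fell, and the median was -0.11. Of 8 tested related ABC transporter genes 0 were called higher by edgeR, DESeq2 or limma (1 at an unadjusted p under 0.05) and 2 lower, against 8.90% and 9.20% of all genes, with a median of -0.60. With the adjusted p alone 5 fell, against 31.5% of all genes. Those called were Abca9, which fell from 25.8 ± 1.59 to 6.23 ± 1.07 FPKM (-1.83, adjusted p = 2.12e-06), and Abcg3, which fell from 7.94 ± 0.712 to 1.11 ± 0.370 FPKM (-2.62, adjusted p = 9.51e-06).

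**Figure D4:**
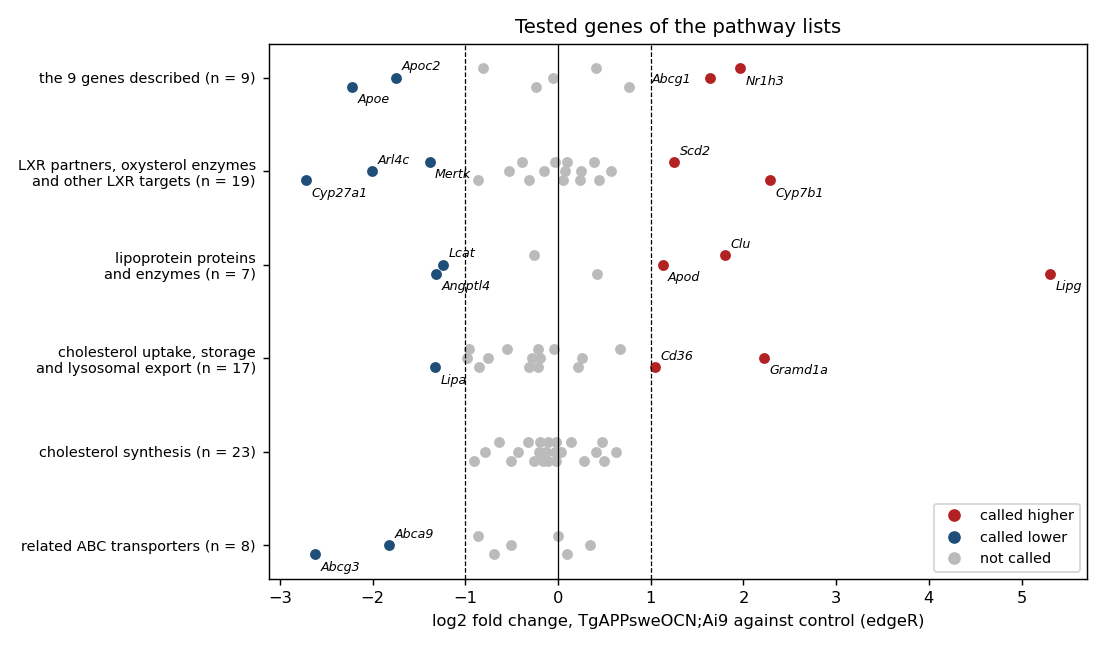
Log2 fold change (edgeR) of each tested gene of the 9 genes and the 5 pathway lists, 1 point per gene, coloured by whether it was called higher, called lower or not called. Calls in both directions appear among the 9 genes and in 3 of the 5 lists, none among the 23 synthesis genes, and 2 in the lower direction among the transporters.

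Of the marker lists, the summed FPKM of 6 adipocyte markers was 60.1 to 73.1 in controls and 16.3 to 22.7 in TgAPPsweOCN, mostly from Fabp4 and Pparg, which macrophages express as well. That of 6 osteoclast markers was 11.1 to 13.7 and 28.6 to 51.7, mostly from Acp5 in TgAPPsweOCN and from Ctsk in controls. Of the 4 tested osteoclast markers 2 rose and 1 fell with the adjusted p alone, against 32.5% and 31.5% of all genes. Acp5 and Ocstamp were called higher, as were 8.90% of all genes. Ctsk fell (5.94 to 7.58 FPKM against 4.27 to 5.23, log2 fold change -0.36, adjusted p = 0.0372), and Dcstamp did not pass the test (-0.77, adjusted p = 0.0973). Neutrophil markers (45.8 to 74.5 and 55.6 to 66.8), mostly Csf3r, overlapped in their sum. Of 6 tested neutrophil markers 1 was called higher, against 8.90% of all genes. It was Camp, at 0.10 to 0.87 FPKM in controls and 1.80 to 4.66 in TgAPPsweOCN (log2 fold change 3.02, adjusted p = 0.00175). Endothelial markers were at 3.67 to 4.78 and 4.96 to 5.51, and lymphoid and erythroid markers did not exceed 0.16. Their part in the differences of the cholesterol genes was not tested.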

How the data were processed

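RNA-seq values of 6 libraries, 3 per genotype, were used as deposited. By the methods of the paper, samples qualified with an RNA integrity number above 2. The authors mapped clean DNBSEQ reads with HISAT2. The submitters' notes list HISAT2 2.0.4, Bowtie2 2.2.5, RSEM 1.2.12, DESeq2 1.4.5 and mm10, without their roles. The annotation and the strandedness are not given in the sources used here. The authors deposited estimated counts, fractional for 13.3% to 14.4% of genes, and how reads were divided between genes is not stated. FPKM values, deposited by the authors with 2 decimals, cover the same genes. A further table of the authors' own log2 ratios and p-values was not used.

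Estimated counts were rounded, although the test had been planned on whole counts, and tested with edgeR 4.0.16 under R 4.3.3 (TMM, filterByExpr, quasi-likelihood test, Benjamini-Hochberg adjustment over 12701 genes, no block). Called genes had an adjusted p at or under 0.05 and a log2 fold change of 1 or more, up or down. SE values are of the fitted log2 fold change. Ratios and shares were compared by two-sided exact permutation tests. Locations and sequences came from RefSeq GRCm38.p6, the build named mm10. Python 3.11.15, pandas 2.3.3, numpy 2.4.6 and matplotlib 3.10.9 served for tables and plots. The procedure was tested on simulated data.

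Members and lists were chosen with earlier results of these data known. Named are all 9 genes, every called gene of 5 pathway lists (up to 4 per direction), the 5 genes most like Apoe, and App. Marker genes, Acp2, Ctsa, the genes near Apoe, Rxra, Srebf1, Lpcat3, Smpdl3a, Acaca and Cyp46a1 are outside this rule and were picked with their values known. The looser promoter search was added after the first. Alternatives were DESeq2 1.42.0, RLE factors, library totals, no low-count filter, at least 10 counts in every library, a replicate block, limma 3.58.1 on log2(FPKM + 1) or log2(FPKM + 0.1), and leaving out each library. For ratios, counts or an added 0.1 FPKM were used.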

Additional observations from a re-analysis of the deposited data

How the results depend on the processing

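The 9 genes kept their counts of 2 called higher and 2 lower under all 14 alternatives, apart from 3 lower through Mylip with library totals and with limma on log2(FPKM + 0.1). Nr1h3, Abcg1, Apoe and Apoc2 were called in 14 of 14. The value of Abca1 missed the threshold with library totals (0.20), log2(FPKM + 1) (0.19) and log2(FPKM + 0.1) (0.19). With a library left out, Nr1h2 lay between -0.30 and -0.18 and Lpl between -0.17 and 0.0465, where its sign turned (0.0148 and 0.0465).

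Calls in the lists, which hold few genes, moved more. In the receptor partner list, genes called higher went from 2 to 1 under the filter of 10 counts and 0 with log2(FPKM + 1), and to 1 to 2 with a library left out, and those called lower from 3 to 4 through Rxra with library totals and either limma fit, and to 4 through Cyp46a1, which the low-count filter had left out with all 6 libraries, with no count filter, without control replicate 2 or without TgAPPsweOCN replicate 1. Transporters called lower went from 2 to 3 with library totals and log2(FPKM + 0.1). Of lipoprotein genes, those called lower went from 2 to 1 with DESeq2, at least 10 counts, the replicate block and log2(FPKM + 1), and to 1 to 2 with a library left out. Those called higher went from 3 to 1 with at least 10 counts and log2(FPKM + 1). Uptake genes called lower went from 1 to 4 with library totals, 2 with either limma fit and 1 to 3 with a library left out, and those called higher from 2 to 1 with library totals, 1 with either limma fit and 1 to 2 with a library left out. Synthesis genes called lower went from 0 to 2 with library totals, 1 with log2(FPKM + 0.1) and 0 to 1 with a library left out. The 10-count filter tests fewer genes, and the other causes were not tested. Over all genes, calls were 1130 higher and 1169 lower, 846 and 1732 with library totals, and 593 and 845 with log2(FPKM + 1).

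The labels give no shared litter, batch or day for same-numbered libraries, and their deviations from the genotype means correlated at 0.0127, 0.00664 and 0.141, so the numbers were not taken as pairs. With the replicate block, the log2 fold changes were -2.22 for Apoe, 1.97 for Nr1h3 and 1.64 for Abcg1, with 2 called higher and 2 lower, and the call of Lcat ended (adjusted p = 0.0651). For the ratios and the share a sign-flip test over 3 pairs cannot go below p = 0.25 (exact). With 3 libraries per genotype the exact tests cannot pass 0.05, and genes near 3 counts, such as Lipg in controls, have wide intervals.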
